A study of Mus musculus with 57 samples.

Results

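Of 57 single cells from newborn mouse kidney, sorted to enrich for the renal vesicle, 24 nephron cells with high cyclin B1 transcript were set against 17 nephron cells in which that transcript was nearly absent. The cells were chosen by their measured Pax8 and Ccnb1 levels. Nephron cells were those with Pax8, a transcription factor of the early nephron, at RPKM 5 or more, where RPKM is the read density of a gene, scaled to its length and to the size of the library. There were 50 such cells. Ccnb1-high cells had Ccnb1 at RPKM 20 or more, Ccnb1-low cells had it below RPKM 1, and 9 cells lay in between. The other 7 cells had Pax8 below RPKM 5. All cells, on both sides, carried the Tg(Crym-EGFP)82Gsat transgene, in which the Crym gene drives EGFP, on a mixed strain background. They were taken at postnatal day 4 and came from 1 pool of 2 kidneys of mice whose sex was not recorded. Each cell was captured in its own chamber of a Fluidigm C1 chip, its RNA was amplified with the SMARTer kit, and all libraries shared 1 sequencing run and lane per the column headers. Cells of 1 pool are not replicates, so every difference below is a description of these cells with no p-value, and an interval on a share of cells is an exact Clopper-Pearson 95% interval that covers the sampling of cells alone.

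Cyclin B1 is the activating partner of the kinase Cdk1, and the complex drives entry into mitosis. Its transcript accumulates through G2 and is lost after division, as are those of many genes of the spindle, the kinetochore and the ubiquitin ligase that ends mitosis. Many of these genes are repressed outside G2 and M by complexes that bind the cell cycle homology region of their promoters, and CCAAT boxes bound by the factor NF-Y lie upstream of it. Cells of the renal vesicle, the epithelial ball that grows into a nephron, divide actively while the vesicle takes on its proximal and distal fates.

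Promoters of Ccnb1, of the markers Ube2c and Top2a and of Cdca8 and Ccnb2, mitotic genes with large differences between the sides, are shown here because their letters were not used to choose the cells, with the promoter of Ahctf1, a nuclear pore gene treated below, beside them. Each is 250 bases before and 50 bases after the annotated start, 5′ to 3′ on the gene's strand, from RefSeq on build GRCm38.p6. Capitals mark the cell cycle homology region, TTTGAA or TTCGAA or their reverse complements, and the CCAAT box, CCAAT or ATTGG. The intervals are chr13:100786437-100786736 (minus strand) for Ccnb1, chr2:164769679-164769978 (plus) for Ube2c, chr4:124936868-124937167 (minus) for Cdca8, chr9:70421505-70421804 (minus) for Ccnb2, chr11:99024140-99024439 (minus) for Top2a and chr1:179803966-179804265 (minus) for Ahctf1.
Ccnb1: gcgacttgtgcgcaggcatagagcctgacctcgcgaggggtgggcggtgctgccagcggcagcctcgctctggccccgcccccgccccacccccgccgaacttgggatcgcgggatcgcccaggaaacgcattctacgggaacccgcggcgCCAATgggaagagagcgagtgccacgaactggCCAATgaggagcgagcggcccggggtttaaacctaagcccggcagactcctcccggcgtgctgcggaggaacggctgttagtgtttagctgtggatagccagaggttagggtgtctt
Ube2c: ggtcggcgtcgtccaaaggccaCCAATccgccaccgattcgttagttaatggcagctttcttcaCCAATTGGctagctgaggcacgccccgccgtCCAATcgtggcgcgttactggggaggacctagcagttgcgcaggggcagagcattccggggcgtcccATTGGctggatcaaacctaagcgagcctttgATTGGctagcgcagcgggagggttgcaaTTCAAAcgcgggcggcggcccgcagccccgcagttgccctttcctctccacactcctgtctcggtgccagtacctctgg
Cdca8: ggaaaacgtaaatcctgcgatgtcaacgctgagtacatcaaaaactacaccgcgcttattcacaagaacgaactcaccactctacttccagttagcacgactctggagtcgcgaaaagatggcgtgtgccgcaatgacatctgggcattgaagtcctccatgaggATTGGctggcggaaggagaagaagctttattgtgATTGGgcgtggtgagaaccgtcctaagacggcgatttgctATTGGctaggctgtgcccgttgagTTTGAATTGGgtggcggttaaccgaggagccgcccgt
Ccnb2: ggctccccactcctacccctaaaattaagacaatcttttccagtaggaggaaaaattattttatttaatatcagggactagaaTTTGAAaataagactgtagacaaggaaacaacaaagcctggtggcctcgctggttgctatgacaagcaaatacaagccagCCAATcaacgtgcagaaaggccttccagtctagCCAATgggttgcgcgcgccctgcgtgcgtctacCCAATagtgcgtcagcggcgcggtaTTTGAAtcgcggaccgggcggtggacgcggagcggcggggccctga
Top2a: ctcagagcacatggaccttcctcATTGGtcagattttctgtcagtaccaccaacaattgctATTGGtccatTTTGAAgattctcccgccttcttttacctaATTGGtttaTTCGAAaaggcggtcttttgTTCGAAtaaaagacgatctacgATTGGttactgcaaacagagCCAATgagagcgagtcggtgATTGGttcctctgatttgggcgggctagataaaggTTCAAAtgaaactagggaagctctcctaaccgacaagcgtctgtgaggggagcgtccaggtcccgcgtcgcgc
Ahctf1: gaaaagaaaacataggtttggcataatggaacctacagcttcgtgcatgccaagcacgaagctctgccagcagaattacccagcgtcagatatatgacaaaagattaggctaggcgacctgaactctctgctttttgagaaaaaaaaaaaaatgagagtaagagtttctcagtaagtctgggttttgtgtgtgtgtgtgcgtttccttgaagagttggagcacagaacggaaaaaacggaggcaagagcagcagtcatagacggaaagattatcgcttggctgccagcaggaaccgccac
Ube2c, Cdca8, Ccnb2 and Top2a each held the homology region within 50 bases of the start, at positions -29, 14, 5 and -23 counted from the start, and more than 1 CCAAT box on either strand. In Cdca8 a homology region and a CCAAT box overlap at their junction. The Ccnb1 window held CCAAT boxes 32 bases apart, at -99 and -67, and no homology region with these letters. The Ahctf1 window held neither. A match is a run of letters and not a measured binding site.

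Ccnb1 chose the cells, so its own values are only a description. On mm9 it lies at chromosome 13, 101548694 to 101556441. Ccnb1 ranged over RPKM 34.4 to 2090 in Ccnb1-high cells with a median of 335, against 0 to 0.983 in Ccnb1-low cells with a median of 0.361. The Ccnb1-high cell nearest to the threshold, cell 47, had 34.4, and the nearest cell outside, cell 49, had 11.5. On the other side cell 15 had 0.983 and the nearest cell outside, cell 48, had 1.16. Pax8 (mm9 chromosome 2, 24276080 to 24331086), on which all cells were chosen, had a median of 325 in Ccnb1-high cells and 190 in Ccnb1-low cells, and both ranges reached above 1100.

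The label of the Ccnb1-high cells held in most of them for the other G2/M markers. Ube2c, the ubiquitin-conjugating enzyme of the anaphase promoting complex (mm9 chromosome 2, 164595429 to 164598402), ranged over RPKM 0 to 1130 in Ccnb1-high cells with a median of 157, and over 0 to 197 in Ccnb1-low cells with a median of 0. It was at RPKM 20 or more in 18 of 24 Ccnb1-high cells (75.0%, interval 53.3 to 90.2) and in 3 of 17 Ccnb1-low cells (17.6%, interval 3.80 to 43.4). The groups therefore overlapped: in the Ccnb1-high cell 42 Ube2c was listed at 0, and the Ccnb1-low cells 51, 52 and 2 had 197, 81.9 and 28.5. Top2a, topoisomerase II, which untangles sister chromatids (mm9 chromosome 11, 98854261 to 98885503), ranged over 2.20 to 934 in Ccnb1-high cells with a median of 213 and over 0.747 to 142 in Ccnb1-low cells with a median of 2.32. It was at RPKM 20 or more in 21 of 24 Ccnb1-high cells and 6 of 17 Ccnb1-low cells. Cdc20, which activates the anaphase promoting complex, was detected, at RPKM 1 or more, in 17 of 24 Ccnb1-high cells (70.8%, interval 48.9 to 87.4) and 1 of 17 Ccnb1-low cells (5.88%, interval 0.149 to 28.7). The mitotic kinase Plk1 was, like Cdc20, detected in 17 of 24 Ccnb1-high cells and 1 of 17 Ccnb1-low cells.

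Differences across genes are given as mean log2(RPKM + 1) in Ccnb1-high cells minus that in Ccnb1-low cells, for the 9485 of 12087 genes detected in at least 5 of the 41 compared cells. A difference of 2 or more, a ratio of 4 on that scale, was reached upward by 276 genes (2.91%) and downward by 16 genes (0.169%). The median over all compared genes was 0.26, so a difference near that value is what a typical gene showed. Most genes past the limit differed in how many cells had the transcript: the 275 that were higher, leaving out Ccnb1, were detected in a median of 83.3% of Ccnb1-high cells and 35.3% of Ccnb1-low cells. Over all compared genes these medians were 45.8% and 35.3%. In none of the 275 genes did every Ccnb1-high cell lie above every Ccnb1-low cell.

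The known G2/M genes, Ccnb1 left out, passed the limit far more often than all genes did. Most of the 275 higher genes were not on the G2/M list. Of 162 compared members, 80 were higher by 2 or more (49.4%, beside 2.91% of all genes), none was lower by 2 or more, and the median difference was 1.98. With the number of detected genes in each cell as a covariate, 61 of the members were past the limit and the median was 1.43.

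By role, all 3 members of the chromosomal passenger complex passed the limit: Cdca8 (borealin), the inner centromere scaffold Incenp and survivin, Birc5. Cdca8 ranged over RPKM 5.40 to 166 in Ccnb1-high cells with a median of 66.0, against 0 to 61.8 in Ccnb1-low cells with a median of 0. It was detected in 24 of 24 Ccnb1-high and 3 of 17 Ccnb1-low cells, a difference of 5.25. Of the 3 Ccnb1-low cells with the transcript, the highest, at 61.8, lay just under the Ccnb1-high median. Among regulators of cyclin B and Cdk1, 5 of 16 compared members passed. Ccnb2, the second B-type cyclin, had a median of 216 (0 to 815) in Ccnb1-high cells and 0.543 (0 to 378) in Ccnb1-low cells, a difference of 4.96. Cdk1 had a median of 127 (1.38 to 388) in Ccnb1-high cells and 1.37 (0 to 130) in Ccnb1-low cells, a difference of 3.54. Spindle and centrosome genes passed in 13 of 20 members, mitotic kinases and checkpoint genes in 10 of 16, kinesins in 7 of 13, cytokinesis genes in 7 of 13, and chromosome structure genes in 10 of 21. Kinetochore and centromere genes passed in 12 of 33 and genes of the anaphase promoting complex and ubiquitin in 4 of 11. The proliferation antigen Mki67 had a median of 38.8 (0 to 190) in Ccnb1-high cells and 0.377 (0 to 53.3) in Ccnb1-low cells, a difference of 3.12.

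**Figure D1:**
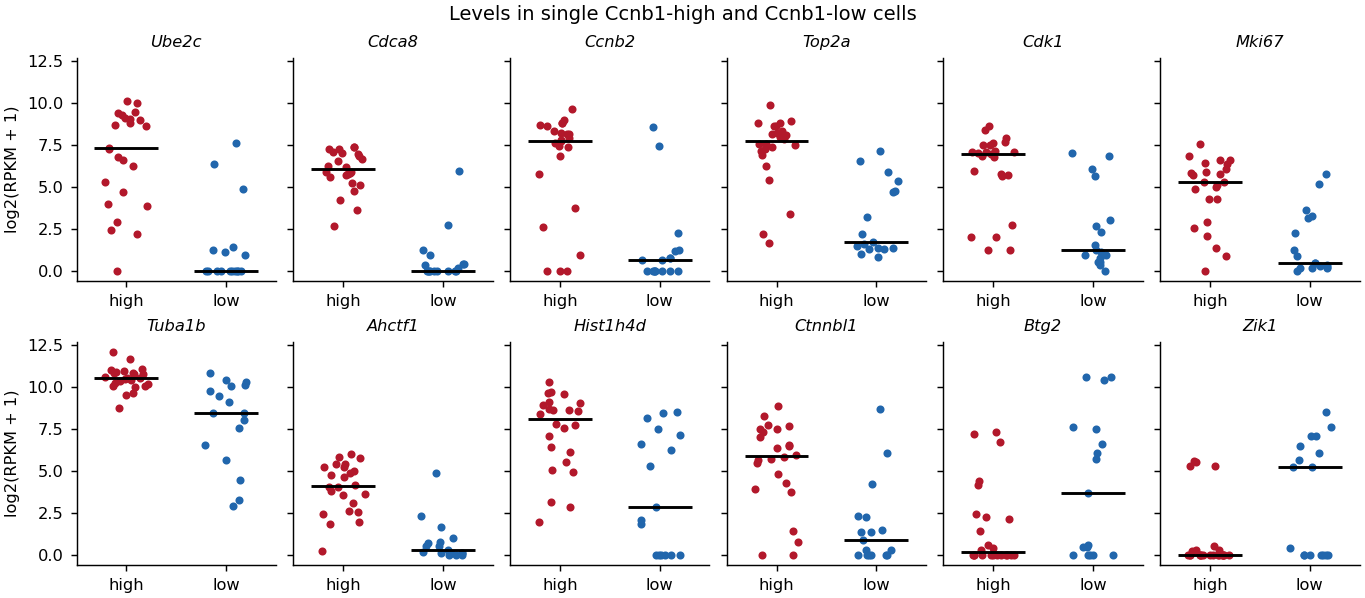
Levels of 12 named genes as log2(RPKM + 1) in single cells, Ccnb1-high (red, n = 24 cells) left of Ccnb1-low (blue, n = 17 cells) in each panel, with a black line at the median. Mitotic genes such as Cdca8 are high in nearly all Ccnb1-high cells and near 0 in most Ccnb1-low cells, while Btg2 and Zik1 show the opposite order, and in every panel the ranges overlap.

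The promoters of the G2/M genes past the limit held the homology region more often than promoters at large. Shares were counted over genes with a single promoter entry in the table: 64 of the 80 G2/M genes that were higher, 57 of the 82 G2/M genes between the limits, 5960 of the compared genes and 22862 genes in all. TTTGAA or TTCGAA, on either strand, lay in the 300-base window of 48 of the 64 (75.0%), of 31 of the 57 (54.4%), of 14.4% of compared genes and of 19.8% of all promoters. Within 50 bases of the start the region lay in 40 of the 64 (62.5%), in 36.8% of the 57, in 3.61% of compared genes and in 5.29% of all promoters. At least 1 CCAAT box on either strand lay in 68.8% of the 64, in 59.6% of the 57, in 41.2% of compared genes and in 38.2% of all promoters. Both a homology region within 50 bases of the start and at least 2 CCAAT boxes were present in 24 of the 64 (37.5%), 6 of the 57 (10.5%), 1.09% of compared genes and 0.748% of all promoters. The motifs can overlap one another, as in Cdca8. CCAAT and ATTGG were counted separately, so a single run CCAATTGG, as in Ube2c at -186 and -183, counted as 2 boxes.

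The Ccnb1-low cells were not a uniform group outside the cycle. Over the S phase list the mean log2(RPKM + 1) of its members in a cell ranged over 1.68 to 5.24 in Ccnb1-high cells with a median of 3.50, and over 0.903 to 5.09 in Ccnb1-low cells with a median of 2.12. Of the 17 Ccnb1-low cells, 7 lay below the lowest Ccnb1-high cell, and 6 lay at or above the Ccnb1-high median. The corresponding mean over the G2/M list, without Ccnb1, ranged over 2.57 to 4.80 in Ccnb1-high cells with a median of 3.82, and over 0.683 to 3.76 in Ccnb1-low cells with a median of 1.22. Cells 51, 56 and 43 were the Ccnb1-low cells that reached into the Ccnb1-high range, with 3.76, 3.36 and 2.67. Cell 51 also had Top2a at 142, while cell 52, with Ube2c at 81.9, had a G2/M mean of 0.761 and Top2a at 3.51.

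Within the Ccnb1-high side the G2/M and S phase means did not move together. Cell 40, with the highest Ccnb1 (2090), had the highest G2/M mean (4.80) and the lowest S phase mean of the 24 cells (1.68). Cell 4, with Ccnb1 at 145, had the lowest G2/M mean (2.57) and a high S phase mean (5.18). Across the 24 cells Spearman's rho between the means was -0.15, that of Ccnb1 with the G2/M mean was 0.59, and that of Ccnb1 with the S phase mean was -0.40. Across the 17 Ccnb1-low cells rho between both means was 0.83. Gene by gene, the rank correlation with Ccnb1 within the 24 cells had a median of 0.21 over 131 G2/M genes and 0.02 over 4336 genes in all, and was highest for Ube2c at 0.78. Cells share a pool and a run, and each RPKM is scaled to its own library, so these are descriptions. The 9 cells in between had a median G2/M mean of 2.57 and a median S phase mean of 4.11, with 6 of the 9 at or above the Ccnb1-high median for S phase.

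**Figure D2:**
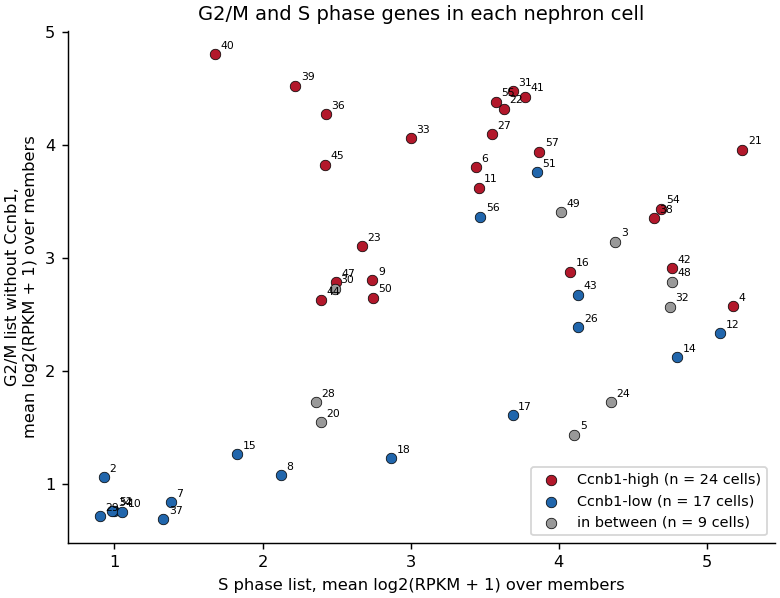
Mean log2(RPKM + 1) over the G2/M list without Ccnb1 (vertical axis) against that over the S phase list (horizontal axis) in each nephron cell, numbered as in the labels, for Ccnb1-high (red), Ccnb1-low (blue) and the cells in between (grey). A cluster of Ccnb1-low cells lies low on both axes, other Ccnb1-low cells and cells in between are high for S phase, and Ccnb1-high cells lie at 2.57 or above on the G2/M axis.

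S phase genes differed less between the sides than mitotic genes. Of 84 compared members 7 were higher by 2 or more (8.33%, beside 2.91% of all genes) and none was lower by as much, with a median difference of 0.75. They were Rrm2, Asf1b, Pold2, 2810417H13Rik, Rpa3, Gmnn and Gins1. Rrm2, the small subunit of ribonucleotide reductase, which makes DNA precursors, had a median of 280 (0.233 to 1342) in Ccnb1-high cells and 3.48 (0 to 895) in Ccnb1-low cells, a difference of 3.30. Its highest Ccnb1-low value lies within the Ccnb1-high range. The PCNA partner 2810417H13Rik, now called Pclaf, had a median of 112 (6.82 to 752) in Ccnb1-high cells and 10.9 (0 to 519) in Ccnb1-low cells. Tyms, thymidylate synthase, had a median of 29.4 (2.28 to 247) in Ccnb1-high cells and 45.2 (0.591 to 170) in Ccnb1-low cells, a difference of 0.77 in mean log2, so its median and its mean log2 differ in direction. The replication clamp Pcna was at a median of 287 in Ccnb1-high cells and 346 in Ccnb1-low cells, a difference of 0.58.

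Among the 22 compared genes of the G1 list, Ccnd1 and Mycn were higher by 2 or more (9.09%, beside 2.91% of all genes). Only Btg2 was lower by as much, beside 0.169% of all genes. Mycn, a growth-promoting transcription factor, had a median of 45.8 (0 to 280) in Ccnb1-high cells and 0.310 (0 to 157) in Ccnb1-low cells, a difference of 2.40. Btg2, an antiproliferative gene, had a median of 0.111 (0 to 160) in Ccnb1-high cells and 11.9 (0 to 1585) in Ccnb1-low cells, a difference of -2.49. It was detected in 9 of 24 Ccnb1-high and 9 of 17 Ccnb1-low cells, and its median among detecting cells was 17.3 in Ccnb1-high and 184 in Ccnb1-low cells. The highest Ccnb1-low values were 1585, 1534 and 1370 in cells 34, 2 and 10, the cells with podocyte transcripts described below, and without cells 2 and 10, an alternative chosen after seeing the data, the difference was -1.65, inside the limit. The Cdk inhibitor Cdkn1c differed by 0.11, with medians of 32.8 in Ccnb1-high and 33.5 in Ccnb1-low cells.

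More genes were detected in Ccnb1-high cells. The number per cell ranged over 2857 to 6502 in Ccnb1-high cells, with quartiles of 4361 and 5474 and a median of 4756.5, and over 2809 to 5379 in Ccnb1-low cells, with quartiles of 3703 and 4339 and a median of 4036. Of the Ccnb1-high cells 21 of 24 were above the Ccnb1-low median, and 1 of 17 Ccnb1-low cells was above the Ccnb1-high median. The ranges overlapped from 2857 to 5379, nearly the whole Ccnb1-low range. The difference in medians, 720.5 genes, was 622 when the G2/M and S phase genes were left out of the count, so the listed genes accounted for the smaller part. It was 624 for genes above 0 and 617.5 for genes at RPKM 5 or more. The table leaves out genes that were low in nearly every cell, so these counts run over its 12087 rows.

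Depth moved with the sides. The libraries' relative depth, set to 1 at the median of the 57 cells, ranged over 0.746 to 1.55 in Ccnb1-high cells with a median of 1.07, and over 0.348 to 1.31 in Ccnb1-low cells with a median of 0.896. Between the 19 Ccnb1-high and 13 Ccnb1-low cells in the shared range of relative depth, the difference in median detected genes was 710. In a linear fit with relative depth as a covariate the difference in means was 599.1, and without it 787.9. Spearman's rho between detected genes and relative depth was 0.39 over the Ccnb1-high cells and 0.04 over the Ccnb1-low cells. More RNA in a cell, better capture and deeper sequencing each give more detected genes and cannot be told apart here.

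**Figure D3:**
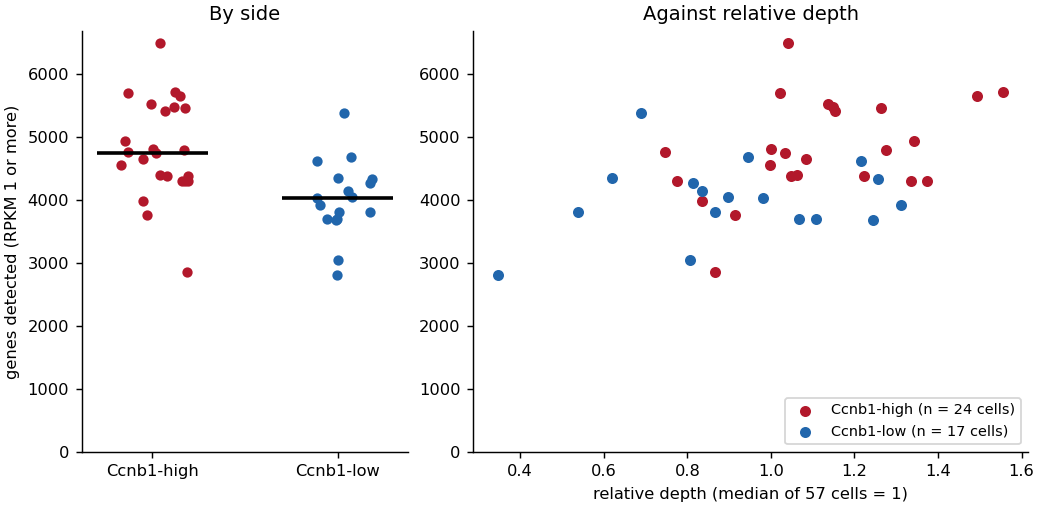
Genes at RPKM 1 or more in each cell, by side on the left with a black line at the median, and against relative depth on the right, for Ccnb1-high (red) and Ccnb1-low (blue) cells. The medians are 4756.5 and 4036, and within the shared range of depth the difference in medians is 710.

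Beyond the cell cycle lists, 186 of 9217 compared genes were higher by 2 or more (2.02%) and 15 were lower. With the number of detected genes as a covariate the counts were 97 and 78, of which 79 and 12 were among the 186 and 15. Of these 186 genes, 20 stood on another of the lists and 166 on none. The cell cycle lists do not hold every known gene of division. Among the 186 were the E2F partner Tfdp1 (2.98), the anaphase promoting complex subunit Cdc23 (2.07), the augmin subunit Haus6 (2.34), the centrosome genes Odf2 (2.05) and Cspp1 (2.19), and the dynein regulator Nudc (2.52), which were singled out after their values were seen. Over the promoters of the 186 genes, 115 with a single entry, the homology region lay in 13.9% and, within 50 bases of the start, in 1.74%, beside 14.4% and 3.61% of compared genes, and a CCAAT box lay in 40.9%, beside 41.2%.

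Of the listed cytoskeleton genes, some tubulin genes and no actin genes passed the limit. The list is not complete: the actin-binding genes Coro1c (2.655) and Tagln2 (2.10), on none of the lists, were also past it. Among tubulins and their regulators 4 of 14 were higher by 2 or more (28.6%, beside 2.91% of all genes) and the median difference was 1.50, beside 0.26, while 0 of 20 actin and cortex genes were past the limit in either direction, with a median of 0.18. Tuba1b, an alpha-tubulin, had a median of 1521 (440 to 4338) in Ccnb1-high cells and 354 (6.56 to 1869) in Ccnb1-low cells, a difference of 2.55. It was detected in every cell of both sides, and the Ccnb1-low median lay below the lowest Ccnb1-high cell. Tuba1c had a median of 612 (246 to 1268) in Ccnb1-high cells and 174 (1.55 to 583) in Ccnb1-low cells, a difference of 2.44. Tubb6, a beta-tubulin, was detected in 15 of 24 Ccnb1-high and 2 of 17 Ccnb1-low cells, with medians of 18.5 and 0 and a difference of 2.83. Tubulin genes have close copies that can share reads, so the level of any 1 of them is uncertain.

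Among nuclear envelope and transport genes 3 of 39 passed (7.69%, beside 2.91% of all genes), Ahctf1, Kpna3 and Nup37, and the list's median was 0.88, beside 0.26. Ahctf1 (ELYS), which seeds nuclear pores on chromatin as the nucleus re-forms, had a median of 16.2 (0.161 to 62.8) in Ccnb1-high cells and 0.212 (0 to 28.7) in Ccnb1-low cells. It was detected in 23 of 24 Ccnb1-high cells (95.8%, interval 78.9 to 99.9) and in 3 of 17 Ccnb1-low cells (17.6%, interval 3.80 to 43.4), a difference of 3.23. Sec13, a coat protein of vesicle transport and also of the nuclear pore, had a median of 203 (0.625 to 546) in Ccnb1-high cells and 25.2 (0 to 425) in Ccnb1-low cells, a difference of 3.08. Of 49 chromatin genes Hmga1 (2.67) and the nucleosome-binding Hmgn5 (2.50) passed (4.08%, beside the same 2.91%), with a list median of 0.73.

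The remaining genes with the largest differences came from many processes. Ctnnbl1, a protein of the spliceosome, had a median of 58.8 (0 to 473) in Ccnb1-high cells and 0.862 (0 to 408) in Ccnb1-low cells, a difference of 3.66, the largest outside the lists. The histone H4 gene Hist1h4d had a median of 278 (2.92 to 1295) in Ccnb1-high cells and 6.32 (0 to 361) in Ccnb1-low cells, a difference of 3.51. Its copies are nearly identical and can share reads. Of the 60 compared genes of the histone clusters 2 were past the limit, beside 2.91% of all genes. With detected genes as a covariate 5 of the 60 were higher by 2 or more, beside 164 of all 9485 genes. Psat1, an enzyme of serine synthesis, was detected in 19 of 24 Ccnb1-high and 4 of 17 Ccnb1-low cells, with medians of 31.2 and 0 and a difference of 3.31. Where it was detected, its median was 58.9 in Ccnb1-high and 90.1 in Ccnb1-low cells, so the sides differed in how many cells had it. The others named by size were the mitochondrial ribosome gene Mrpl50 (3.25), the SUMO-activating subunit Sae1 (3.13), citrate synthase Cs (3.10), the transcription factor subunit Gabpb1 (3.08), the noncoding RNA 1190002F15Rik, now Lockd (3.06), Thyn1 (3.05) and the spliceosomal cyclophilin Ppie (3.03). Cs and Sae1 had differences of 1.77 and 2.10 with detected genes as a covariate.

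Of the 186 genes off the cell cycle lists, 7 stayed past the limit in each of 4 other settings: each of the covariates, a split of the nephron cells by Ube2c (22 cells at RPKM 20 or more against 17 below 1), and a split by Top2a, which set the 16 highest cells against the 16 lowest. They were Hist1h4d, Psat1, 1190002F15Rik, Tfdp1, Tubb6, Eci1, an enzyme of fatty acid oxidation, and Rod1, an RNA-binding protein. Taken singly, the settings kept 79 with detected genes as a covariate, 128 with relative depth as a covariate, 28 under the Ube2c split and 91 under the Top2a split. The splits share cells with the main comparison, so the count is a description of the same cells.

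Of the genes lower in Ccnb1-high cells, the largest difference was that of Zik1, a zinc finger protein. Zik1 had a median of 0 (0 to 47.3) in Ccnb1-high cells and 36.3 (0 to 362) in Ccnb1-low cells, a difference of -2.54, and was detected in 4 of 24 Ccnb1-high and 9 of 17 Ccnb1-low cells. Under the Top2a split its difference was 0.25, in the opposite direction. Acaa2, a mitochondrial thiolase of fatty acid oxidation, had a median of 95.8 (0 to 521) in Ccnb1-high cells and 272 (0.346 to 692) in Ccnb1-low cells, a difference of -2.16. The other genes named by size lay between -2.35 and -2.02: Mrpl45, Grina, Ninj1, the ubiquitin chain enzyme Ube4a, BC017643, the small GTPases Rala and Rhog, Cxx1c, the sugar nucleotide transporter Slc35b4, and Anapc4, a subunit of the anaphase promoting complex. None of the 15 was past the limit in all of those 4 settings. Leaving out single cells was examined for the 12 genes named here and not for the rest of the 15. It moved Acaa2, Anapc4, BC017643, Cxx1c, Grina, Ninj1, Rala, Rhog, Slc35b4 and Ube4a inside the limit, while Zik1 and Mrpl45 stayed past it. Without the Ccnb1-low cells 2 and 10, which had the podocyte gene Nphs1, 6 of the 16 lower genes in all were still past it.

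Most of the other lists had few or no genes past the limit, which 2.91% of all genes passed upward. None of the 80 ribosomal protein genes passed in either direction and their median difference was -0.04, below the 0.26 of all genes. None of the 29 splicing, 15 glycolysis and 46 adhesion and polarity genes passed, with medians of 0.40, 0.25 and 0.40. The splicing list is not complete: the spliceosome genes Ctnnbl1 (3.66) and Ppie (3.03), named above, are not on it. Nor are Eftud2 (2.94), Sf3a3 (2.6), Bud31 (2.40), Prpf31 (2.27), Snrpd1 (2.15) and Lsm3 (2.04), also past the limit. The count for splicing therefore holds for the 29 listed genes only. Mitochondrial ribosomal proteins were counted after the values were seen. Of 75 compared, 7 were higher by 2 or more and 1 was lower, with a median of 0.94. With detected genes as a covariate 4 of the 75 were higher by 2 or more. The proteasome list had 2 of 35 past the limit (Psmc6 and Psmc1, both inside it when 1 cell was left out) and a median of 0.81. The respiratory chain list had 2 of 83 (Ndufv1 and Ndufaf2) and a median of 0.26, the chaperones 1 of 20 (Hspa9), and the cilium list 1 of 37 (Ift74, a part of the transport train of cilia) with a median of 0.27. None of the 13 compared stress and immediate early genes passed, and their median was -0.19.

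**Figure D4:**
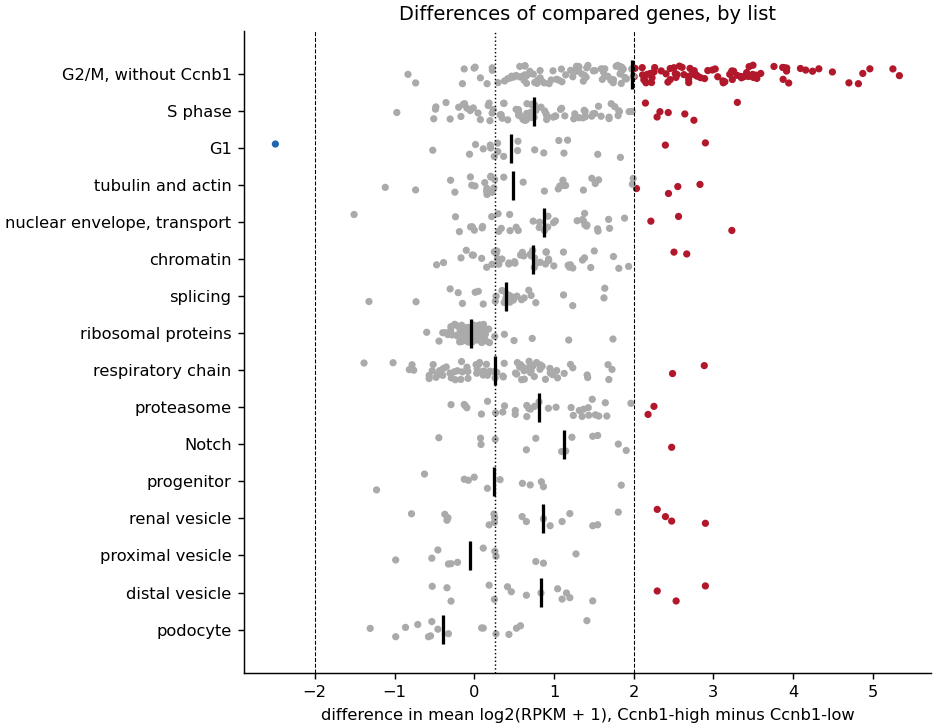
Difference in mean log2(RPKM + 1), Ccnb1-high minus Ccnb1-low, of each compared gene in 16 lists, with a black bar at the list's median, dashed lines at -2 and 2 and a dotted line at the median of all compared genes (0.26). The G2/M list extends far above 2, ribosomal proteins lie close around 0, and the vesicle lists have a few genes above 2 and none below -2.

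Nephron fate genes had a median difference close to that of all genes, while those past the limit stood on the renal vesicle or distal lists. Of 70 compared genes on the progenitor, renal vesicle, proximal, distal, podocyte, tubule and parietal lists, 5 were higher by 2 or more (7.14%, beside 2.91% of all genes), none was lower by as much, and the median difference was 0.28, beside 0.26. Among them were Ccnd1, Hey1, Npy and Lhx1, all on the renal vesicle list. That list had 4 of 21 compared genes past the limit (19.0%, beside 2.91% of all genes) and a median of 0.87. With detected genes as a covariate 3 of the 21 were past it and the median was 0.40. A split of the nephron cells by Ube2c put 0 fate genes past the limit, and a split by Top2a put 4 past it. Each split compared the genes detected in its own cells, so these need not be the same 70.

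Ccnd1, cyclin D1, which stands on the vesicle lists and on the G1 list, ranged over RPKM 33.9 to 1107 in Ccnb1-high cells with a median of 715, and over 0.124 to 587 in Ccnb1-low cells with a median of 236. The difference was 2.90, and 1.89 under the Ube2c split. All Ccnb1-high cells had it, and 2 of 17 Ccnb1-low cells did not. Lhx1, a transcription factor required in the vesicle, ranged over 0.273 to 285 in Ccnb1-high cells with a median of 91.6, and over 0 to 431 in Ccnb1-low cells with a median of 13.0, a difference of 2.29. It was at RPKM 20 or more in 22 of 24 Ccnb1-high cells (91.7%, interval 73.0 to 99.0) and in 8 of 17 Ccnb1-low cells (47.1%, interval 23.0 to 72.2). Its difference was 0.81 under the Ube2c split and 1.92 without the Ccnb1-low cells 2 and 10, inside the limit in both. The neuropeptide gene Npy had a median of 193 (0 to 1799) in Ccnb1-high cells and 8.03 (0 to 504) in Ccnb1-low cells, a difference of 2.40, with 0.84 under the Ube2c split and 1.95 without cells 2 and 10. With detected genes as a covariate Lhx1 and Hey1 lay inside the limit at 1.82 and 1.72, and Sall1 and Hes1 lay past it at 2.06 and 2.12. Sall1 and Hes1 were at 0.26 and 1.13 under the Ube2c split and at 0.62 and 0.28 under the Top2a split.

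Genes of the Notch pathway, which patterns the vesicle, leaned the same way. Of 14 compared members 1, Hey1, was higher by 2 or more and 13 had a difference above 0, beside 6236 of 9484 genes in all, with a list median of 1.12 beside 0.26. Hey1, a Notch target, had a median of 80.2 (1.78 to 423) in Ccnb1-high cells and 27.3 (0 to 524) in Ccnb1-low cells and was detected in 24 of 24 Ccnb1-high and 11 of 17 Ccnb1-low cells, a difference of 2.48, and 1.12 under the Ube2c split. Hes1, another target, was detected in 24 of 24 Ccnb1-high and 12 of 17 Ccnb1-low cells, with a difference of 1.55. The ligand Jag1 was detected in every cell of both sides, with medians of 219 (15.0 to 772) in Ccnb1-high and 207 (2.63 to 515) in Ccnb1-low cells and a difference of 0.65. The receptor Notch2 differed by 0.08, with medians of 21.7 in Ccnb1-high and 33.0 in Ccnb1-low cells.

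The genes that mark one end of the vesicle were found on both sides. Wt1, which marks the proximal vesicle and later the podocytes, ranged over 0.140 to 418 in Ccnb1-high cells with a median of 104, and over 0.167 to 1382 in Ccnb1-low cells with a median of 97.6. It was detected in 20 of 24 Ccnb1-high cells (83.3%, interval 62.6 to 95.3) and 14 of 17 Ccnb1-low cells (82.4%, interval 56.6 to 96.2), and the difference was -0.53. On the distal side Sox9 was detected in 11 of 24 Ccnb1-high and 4 of 17 Ccnb1-low cells (difference 0.46), and Pou3f3 in 9 of 24 and 4 of 17 cells (0.25). The tubule cadherin Cdh6 was detected in 9 of 24 Ccnb1-high and 4 of 17 Ccnb1-low cells (1.20) and Wnt4, the signal that starts epithelial conversion, in 11 and 4 cells (0.95). Every one of these intervals overlaps between the sides. Proximal vesicle genes had 0 of 12 past the limit and a median of -0.05. Distal vesicle genes had 3 of 17 past it (17.6%, beside 2.91% of all genes) and a median of 0.84, beside 0.26. Of those 3, 1 was Ccnd1, which is also on the G1 list. With detected genes as a covariate 1 of the 17 was past the limit and the median was 0.41.

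Progenitor genes gave no common direction. None of 12 compared members passed and the median was 0.24. Six2, which keeps progenitors from differentiating, was found in 3 of 24 Ccnb1-high and 2 of 17 Ccnb1-low cells. Cited1 was detected in 2 and 2 cells, Eya1 in 7 and 9 cells (difference -1.22) and the reporter's gene Crym in 5 and 1 cells (0.60). Sall1, a zinc finger factor of the progenitors and vesicle, had a median of 58.2 (13.2 to 272) in Ccnb1-high and 14.5 (0.198 to 219) in Ccnb1-low cells, a difference of 1.84.

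Transcripts of 4 genes of mature podocytes, a part of the 23 podocyte genes measured, were detected on the Ccnb1-low side alone. Nphs1, Podxl, Synpo and Ptpro, of the filtration slit, surface and cytoskeleton, were each detected in 0 of 24 Ccnb1-high cells, which allows a share of up to 12.5% when 3 of the 24 cells are taken as the limit of a count of 0, and 14.2% by the exact interval drawn for these shares. In Ccnb1-low cells they were detected in 2, 4, 3 and 4 of 17 cells. Most of this came from cells 2, 10 and 34, which had 4, 4 and 3 of the 4 genes, while cells 14 and 29 had 1 each. In these 3 cells the G2/M mean was 1.06, 0.745 and 0.758 and the S phase mean 0.931, 1.05 and 0.986, below the Ccnb1-low medians of 1.22 and 2.12. All 4 genes were in fewer than 5 of the compared cells and therefore outside the counts. Over the 16 compared podocyte genes none passed the limit and the median difference was -0.39, with 7 above 0 and 9 below. The differences ran from -1.305 to 1.41. The highest was that of Actn4, detected in 21 of 24 Ccnb1-high and 12 of 17 Ccnb1-low cells. The early podocyte factor Tcf21 was detected on both sides, in 17 of 24 Ccnb1-high and 8 of 17 Ccnb1-low cells.

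**Figure D5:**
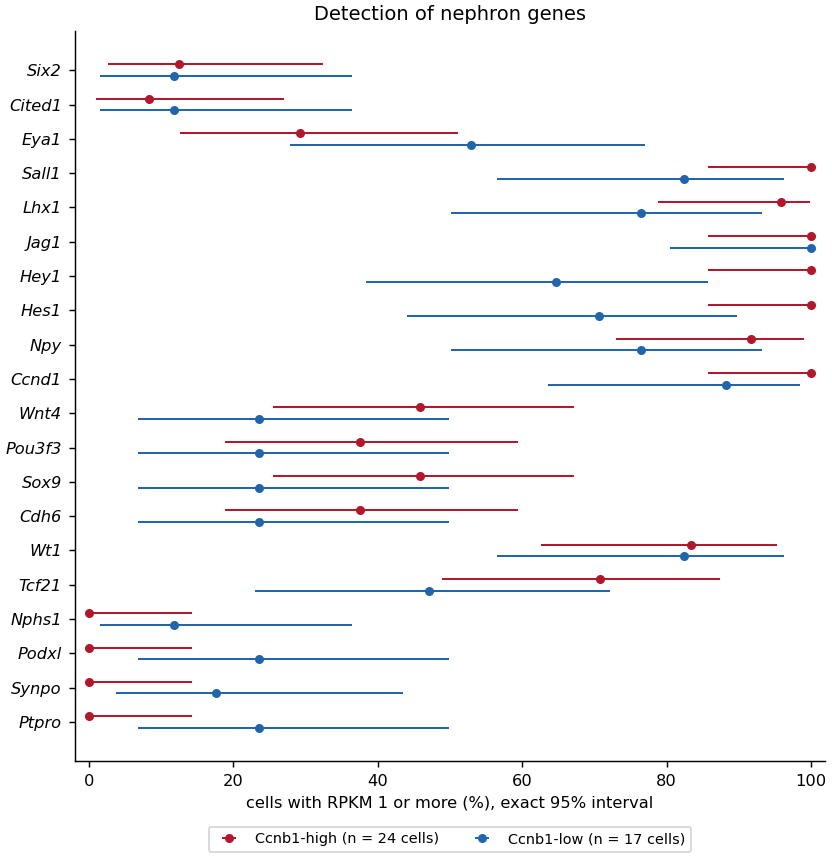
Share of cells with RPKM 1 or more for 20 nephron genes, Ccnb1-high (red, n = 24 cells) above Ccnb1-low (blue, n = 17 cells), with exact 95% intervals. Vesicle genes such as Lhx1 and Hey1 are detected in more Ccnb1-high cells, Wt1 in 83.3% and 82.4%, and the 4 podocyte genes at the bottom in Ccnb1-low cells alone.

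The authors' deposited table of genes that differ between a proximal and a distal cell class holds 787 genes and 28 cells, 14 of them Ccnb1-high, 9 Ccnb1-low and 5 in between. Of its proximal genes 14 of 434 compared were higher by 2 or more in Ccnb1-high cells (3.23%) and 2 were lower. Of its distal genes 9 of 326 were higher (2.76%) and 3 were lower. The shares that were higher lie near the 2.91% of all genes, the few lower genes compare with 16 of 9485 (0.169%), and the medians were 0.16 for proximal and 0.27 for distal genes, beside 0.26. Of the 14 proximal genes that were higher, 8 were off the cell cycle lists, as were 8 of the 9 distal ones.

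Markers of other cell types overlapped in level between the sides. Of the 13 immune markers measured, 10 were detected in at least 1 Ccnb1-high cell and 10 in at least 1 Ccnb1-low cell. Their summed RPKM ranged over 0 to 105 in Ccnb1-high cells and 0 to 180 in Ccnb1-low cells, with medians of 2.88 and 2.46. C1qa and Emr1 were not detected in any of these cells. Ptprc was detected in 7 Ccnb1-high cells and 1 Ccnb1-low cell, and C1qb in 6 and 3, at up to 38.0 and 129. The 14 measured stromal markers summed to 0.246 to 1022 in Ccnb1-high and 0.523 to 1219 in Ccnb1-low cells, with medians of 124 and 194. Of these 14, 10 were detected in at least 1 Ccnb1-high cell and 8 in at least 1 Ccnb1-low cell. The largest contributors, Aldh1a2, Tagln and Acta2, were on both sides, and Pdgfra, Col1a1 and Dcn were detected in none of the cells. Rgs5 was detected in 4 Ccnb1-high and 0 Ccnb1-low cells, and Col1a2 in 1 and 4. The 4 measured endothelial markers summed to 0 to 297 in Ccnb1-high and 0 to 393 in Ccnb1-low cells, mostly Cldn5. The part of these transcripts in the differences above was not tested.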

How the data were processed

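Single cells sorted from Crym-EGFP kidneys were profiled on the C1 with SMARTer and Nextera XT, a chemistry without strand or molecular identifiers, per the labels' protocols. The authors deposited RPKM values per gene and cell, per the file headers, with a count of cells above RPKM 3 for each gene. The authors' class table adds a signed fold, treated here as a score of which only the sign was used. Per the submitters' processing notes the build was mm9 and the tools included DESeq and TopHat 1.4.1, with no role given. The count of cells above RPKM 3 equalled the values for all 12087 genes and was never under 2.

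Absolute depth is unknown. RPKM values of low genes are whole multiples of 1 read, so the ratio of these steps between cells gave relative depth (99.9% of cell pairs agreed to within 0.0001 on the log2 scale). Reads themselves were not recovered, so no count model was used. Depth and detection limit single-cell values, and an RPKM of 0 does not show absence. No pair of cells had a rank correlation above 0.54, so no library looked like a copy of another.

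The compared cells, the gene lists and their rules were chosen with earlier results of these data known. Differences are in mean log2(RPKM + 1), pseudocount 1, among genes at RPKM 1 or more in at least 5 compared cells. A difference of 2 or more, or -2 or less, was counted. No test was made, because all cells come from 1 pool. Of 1123 list entries, 1043 had a row (1012 by symbol, 31 by gene ID). The text names Ccnb1, Ube2c, Top2a and Pax8, in each list up to the 4 members with the largest difference, the 12 largest differences each way off the cell cycle lists, and a set of nephron genes, some of which are not reported here. Other genes named, among them Birc5, Incenp, Cdc20, Plk1, Pcna, Cdc23, Haus6, Odf2, Cspp1, Nudc, Tfdp1, Eci1, Rod1, Gmnn, Gins1, Rpa3 and the named markers of other cell types, were chosen after their values were seen. So were Eftud2, Sf3a3, Bud31, Prpf31, Snrpd1, Lsm3, Coro1c and Tagln2. The measures were checked on simulated data, with differences put only into well expressed genes present in nearly all Ccnb1-low cells. That check does not cover genes that differ mainly in how many cells had the transcript. Alternatives were other pseudocounts, filters, thresholds, splits, scalings and covariates and leaving out each cell. Python 3.11.15, numpy 2.4.6, pandas 2.3.3 and scipy 1.17.1 were used.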

Additional observations from a re-analysis of the deposited data

Results flagged for a closer look

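Cell 58 entered no comparison, because its Pax8 was at RPKM 1.99, and yet it had mitotic transcripts at the level of the Ccnb1-high nephron cells: Ccnb1 at 353, Ube2c at 195 and Top2a at 259. It also had the macrophage markers C1qb at 2240 and Cd68 at 3944. In the other 6 cells with low Pax8, Ccnb1 was at 1.69 or less.

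Among the 9 nephron cells between the sides, single cells stood far from the rest. Cell 49 had Ccnb1 at 11.5 and Top2a at 494, and cell 30, the shallowest of the 57 libraries at a relative depth of 0.323, had Ube2c at 31.7. Summed markers of other cell types were 45.0 for immune genes in cell 48, 1783 for stromal genes in cell 30 and 350 for endothelial genes in cell 5. The rule that picks such values takes about 1 in 20 groups by chance, and the 9 cells were grouped by a measured value and not by the study.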

How the results depend on the processing

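The main counts were 276 genes higher, 16 lower, 80 G2/M, 7 S phase, 5 fate genes and 186 higher genes off the cell cycle lists. With a pseudocount of 0.1 there were 1027 higher, 111 lower, 24 S phase, 9 fate and 880 off-list genes, and with 5 there were 61, 0, 40 G2/M, 1, 1 and 18. A low side of Ccnb1 below 20 gave 181 higher, 2 lower, 3 S phase, 1 fate and 106 off-list genes. The Ube2c split gave 138 higher, 1 S phase, 0 fate and 81 off-list genes, and the Top2a split 34 lower, 16 S phase and 299 off-list genes. Upper quartile scaling, which moved the median of all genes to 0.39, gave 6 lower, 11 S phase and 282 off-list genes. Detected genes as a covariate, which moved that median to -0.02, gave 164 higher, 80 lower, 2 S phase and 97 off-list genes. Cells in the shared range of detected genes (16 and 16) gave 63 lower and 4 S phase genes. Of the settings added after seeing the data, relative depth as a covariate gave 36 lower and 3 fate genes, and leaving out the Ccnb1-low cells 2 and 10, which had Nphs1, gave 3 fate genes, with Lhx1 and Npy inside the limit at 1.92 and 1.95, and 12 lower genes, of which 6 were among the 16. Zik1 was at 0.25 under the Top2a split. G2/M genes stayed at 54 or more past the limit in all settings but the pseudocount of 5.

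Leaving out 1 cell at a time gave 268 to 339 higher genes, 10 to 19 lower (10 without cell 2), 76 to 88 G2/M, 7 to 11 S phase (11 without cell 43), 5 to 6 fate and 179 to 240 off-list genes, and a difference of 710 to 780 in median detected genes. No paired analysis was possible because cell numbers pair nothing across the sides. A single pool limits all of this to these cells, and low counts per gene limit what an undetected transcript can show.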
